A study of Homo sapiens with 2 samples.

Results

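The BH3-only genes encode the pro-apoptotic branch of the BCL2 family whose members share only the short BH3 helix. Here they are the 8 genes BMF, BBC3 (PUMA), PMAIP1 (NOXA), BCL2L11 (BIM), BIK, BID, BAD and HRK, taken by symbol from 16654 genes with expression values. The HUCCT-1 line, established from a human cholangiocarcinoma and used as a model of the intrahepatic form, was treated with 5 μM XY101, a RORγ antagonist, for 48 h, or with vehicle for the same time. Poly(A)-selected RNA of 1 XY101 library and 1 vehicle library was sequenced to ask how antagonism of the nuclear receptor RORγ alters transcription in these cells. The vehicle sample is titled Con2, and the labels also name the RORγ antagonist GSK805, whose samples were not analysed here. With 1 library in each group there was no replicate spread, no test was possible, and XY101 cannot be told apart from any other difference between the cultures or libraries.

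When a cell is stressed, BH3-only proteins insert their BH3 helix into the groove of the pro-survival proteins such as BCL-XL and MCL-1, and some of them also engage BAX and BAK directly. BAX and BAK then open the mitochondrial outer membrane, cytochrome c is released, and caspases are activated. The family is regulated at many levels: BBC3 and PMAIP1 are induced by DNA damage and other stress, BCL2L11 and BMF are held low by growth factor signalling through ERK and AKT in several epithelial cell types, and BID and BAD are controlled mainly as proteins, by cleavage and by phosphorylation. Transcript levels therefore describe only a part of BH3-only activity.

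BMF was the BH3-only gene that stood apart. BMF encodes a protein that is held on the cytoskeleton by dynein light chains and is released after loss of anchorage or of growth signals. It was 12.69 FPKM in the XY101 library, against 3.86 FPKM in the vehicle library, where FPKM is fragments scaled to transcript length and to the mapped fragments of the library. This was 3.23-fold higher, a log2 ratio of 1.69 on the log2(FPKM + 0.1) scale, on which differences between low values appear smaller than they are. HRK was barely detected, and the remaining 6 members lay between a log2 ratio of -0.19 for BAD (1.14-fold lower) and 0.33 for BCL2L11 (1.25-fold higher). Of the 7 members with a mean of at least 1 FPKM over both libraries, 1 was at least 2-fold higher with XY101 and 0 were at least 2-fold lower. Across all 10894 genes at that level, 1.17% were at least 2-fold higher and 0.698% at least 2-fold lower. BMF had the 35th highest ratio of these 10894 genes. Since the study has 1 library per group and bulk RNA, more BMF transcript in each cell and a larger share of cells with BMF cannot be told apart.

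**Figure D1:**
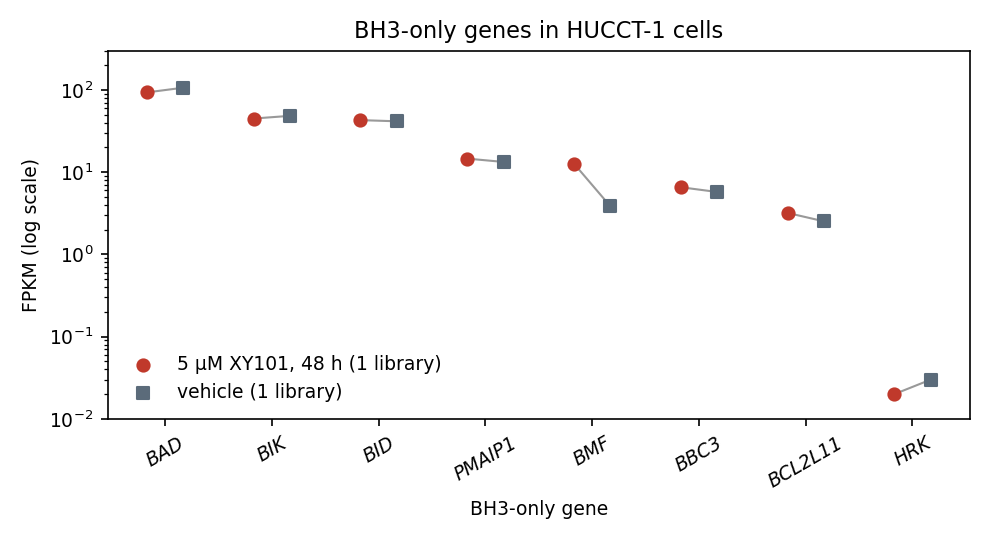
FPKM on a log scale of the 8 BH3-only genes in the XY101 library (circles, left of each pair) and the vehicle library (squares, right of each pair), ordered by mean FPKM. Each point is 1 library, so there are no error bars. The BMF points are 12.69 FPKM with XY101 and 3.86 FPKM with vehicle, while the points of BAD, BIK, BID, PMAIP1, BBC3 and BCL2L11 lie close to level within each pair.

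In GRCh37 (GENCODE release 44, lifted), BMF (NCBI gene 90427) is a minus-strand gene of chromosome 15, from position 40380091 to position 40401093, and the RefSeq promoter table holds 2 start sites for it, 1913 bases apart. The 250 bases before each start are shown because BMF is the member whose level differed. Capitals mark AGGTCA, a half-site that ROR receptors share with other nuclear receptors. Capitals also mark GCGTG, the core of the element bound by the aryl hydrocarbon receptor. The search took AGGTCA alone, without the A/T-rich bases that precede it in a ROR element, so a match is not a ROR element. The sequences are from RefSeq, build GRCh38.p14, written 5′ to 3′ on the minus strand.
BMF downstream start, chr15:40106967-40107216: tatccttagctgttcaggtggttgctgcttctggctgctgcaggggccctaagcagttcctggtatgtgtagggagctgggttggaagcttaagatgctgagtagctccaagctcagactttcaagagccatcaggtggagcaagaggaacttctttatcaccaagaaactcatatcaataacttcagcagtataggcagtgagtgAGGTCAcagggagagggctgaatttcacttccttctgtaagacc
BMF upstream start, chr15:40108880-40109129: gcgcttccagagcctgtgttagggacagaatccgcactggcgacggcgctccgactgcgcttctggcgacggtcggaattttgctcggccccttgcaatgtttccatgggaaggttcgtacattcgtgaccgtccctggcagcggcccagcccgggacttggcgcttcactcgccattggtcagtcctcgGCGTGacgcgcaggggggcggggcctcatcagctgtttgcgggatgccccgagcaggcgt
The window of the downstream start was 48.8% G and C and held 1 AGGTCA, beginning 44 bases before the start. The window of the upstream start was 65.2% G and C and held 1 GCGTG, beginning 60 bases before the start.

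The same search on both strands, with the forkhead motif GTAAACA of FOXO factors added, covered 13 windows of 7 members, and BIK was not in the promoter table. AGGTCA was found for 1 member (BMF), GCGTG for 5 members (BMF, PMAIP1, BCL2L11, BID and BAD) and GTAAACA for 1 member (BCL2L11). No motif of this search holds another within it. Counted in the same way for 13286 genes of the expression table, each with 1 or more windows, 13.1% of genes held AGGTCA, 49.4% held GCGTG and 3.11% held GTAAACA. Over their 19123 windows, 9.84% held AGGTCA, 40.6% held GCGTG and 2.30% held GTAAACA. With 7 members, the member counts are read as a description only. A match describes the letters of the window and does not show binding, and the FPKM values do not tell which BMF start was used.

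The number of fragments behind the BMF values was estimated, since the values come without read totals. The spacing of low FPKM values gave about 18500000 fragments for the XY101 library and about 17500000 for the vehicle library. At the median length of the 9 coding BMF transcripts, 671 nt, this corresponds to 84 fragments in the XY101 library and 24 in the vehicle library. The 95% counting interval (Clopper-Pearson, on the share of fragments from XY101) of the log2 ratio then ran from 1.06 to 2.45. With the longest transcript, 4692 nt, it was 1.53 to 1.91, and at 490 nt, the shortest, it was 0.74 to 2.76. All of these lie above 0, and the last reaches below a 2-fold difference. They cover counting error only and say nothing of the spread between cultures.

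**Figure D2:**
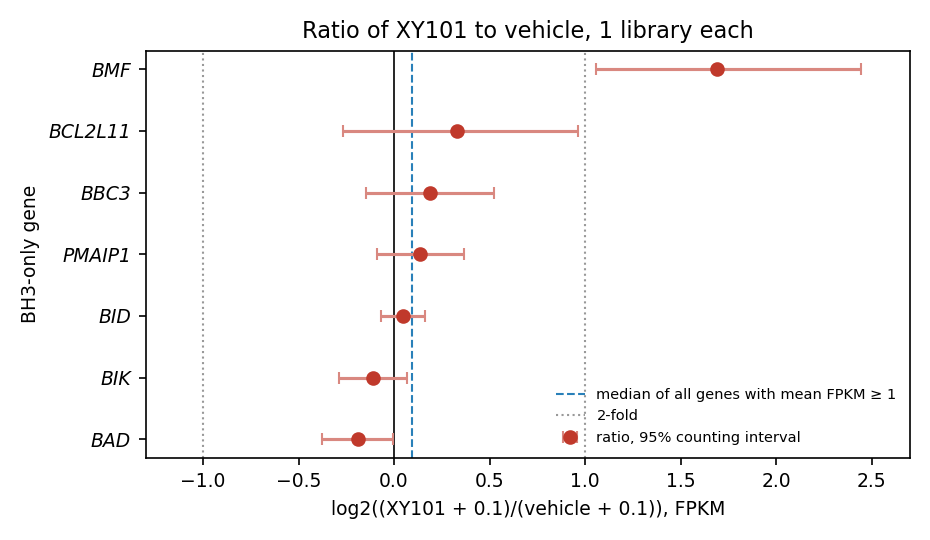
Log2 ratio of XY101 to vehicle for the 7 BH3-only genes with a mean of at least 1 FPKM. Points are on the log2(FPKM + 0.1) scale. Bars are 95% counting intervals from the estimated depth at the median coding transcript length, without the added 0.1. The dashed line is the median of all 10894 genes (0.09) and the dotted lines are 2-fold. The BMF bar, from 1.06 to 2.45, lies wholly to the right of 0, and the bars of BCL2L11, BBC3, PMAIP1, BID and BIK cross 0, while that of BAD lies just below 0.

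Among the members that are thought to engage every pro-survival protein and to activate BAX and BAK, BCL2L11 had 3.2 FPKM in the XY101 library, against 2.53 FPKM in the vehicle library, a log2 ratio of 0.33. Its counting interval ran from -0.27 to 0.96 at the median coding transcript and from 0.08 to 0.60 at the longest. BBC3, a stress-induced gene, had 6.57 FPKM in the XY101 library and 5.75 FPKM in the vehicle library, a log2 ratio of 0.19 with an interval from -0.15 to 0.52. BID, which links death receptors to mitochondria after cleavage by caspase-8, was 43.01 FPKM with XY101 and 41.6 FPKM with vehicle, a log2 ratio of 0.05 (-0.07 to 0.16). The median of all genes was itself 0.09, and 64.4% of them lay above 0. From the highest ratio, BCL2L11 ranked 1998, BBC3 3854 and BID 6191 of the 10894 genes. Set against the median gene, BCL2L11 lay 0.23 higher, BBC3 0.10 higher and BID at -0.05.

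The other members bind a narrower set of partners. PMAIP1, whose protein NOXA binds MCL-1 and A1, had 14.64 FPKM in the XY101 library and 13.33 FPKM in the vehicle library, a log2 ratio of 0.13 (-0.09 to 0.37). BIK, an endoplasmic reticulum protein, had 44.96 FPKM with XY101 and 48.48 FPKM with vehicle, a log2 ratio of -0.11 (-0.29 to 0.07). BAD, which binds BCL-2, BCL-XL and BCL-W and is silenced by phosphorylation, had 93.44 FPKM with XY101 and 106.64 FPKM with vehicle. Its log2 ratio was -0.19, with an interval from -0.38 to -0.0031. HRK, a BCL-XL partner studied mostly in neurons, was 0.02 FPKM with XY101 and 0.03 FPKM with vehicle, values a single rounding step of 0.01 apart that correspond to about 1 fragment with XY101 and 2 with vehicle at the median transcript. HRK was the member below the mean of 1 FPKM, and no fold is given for it.

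**Figure D3:**
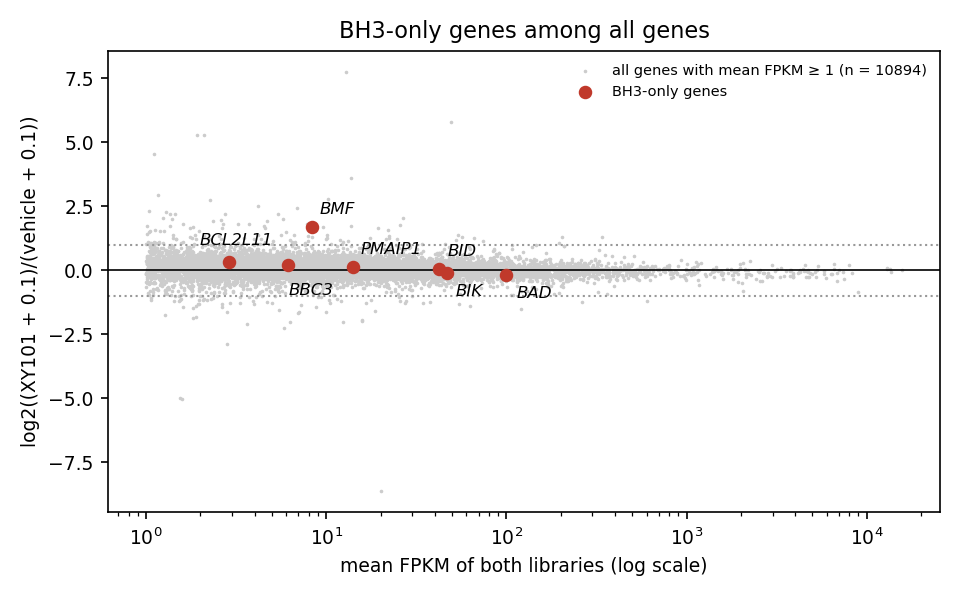
Log2 ratio of XY101 to vehicle on the log2(FPKM + 0.1) scale against mean FPKM of both libraries (log scale) for 10894 genes (grey) and the 7 BH3-only genes among them (red). The dotted lines are 2-fold. BMF, at a mean of 8.28 FPKM, lies above the upper line, and the other 6 lie inside the band.

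FPKM is scaled to length, so levels can also be set between genes. The length that was used for each gene is not known, and the order, sums and shares below depend on it. From high to low, the order in the XY101 library was BAD, BIK, BID, PMAIP1, BMF, BBC3, BCL2L11 and HRK. The order in the vehicle library was the same except that BBC3 stood above BMF. BIK and BID were next to each other in both libraries, 44.96 and 43.01 FPKM with XY101 and 48.48 and 41.6 FPKM with vehicle, and with no replicates their order cannot be separated from library spread. Summed over the 8 members, the level was 218.53 FPKM with XY101 and 222.22 FPKM with vehicle. BMF made up 5.81% of that sum with XY101 and 1.74% with vehicle. BAD made up 42.8% with XY101 and 48.0% with vehicle, and BIK 20.6% with XY101 and 21.8% with vehicle. BMF differed by 8.83 FPKM and BAD by -13.2 FPKM (XY101 minus vehicle), so the summed level of the group was close in the 2 libraries while its make-up differed. Without BMF the sum was 205.84 FPKM with XY101 and 218.36 FPKM with vehicle. Without BAD it was 125.09 FPKM with XY101 and 115.58 FPKM with vehicle, so the direction of the full sum depends on BAD. It also depends on scaling, since the log2 ratio of the full sum was only -0.02 and the sums were not rescaled. Over all genes, the summed FPKM was 832820 with XY101 and 858282 with vehicle.

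Some members share exon sequence with a gene on the opposite strand, and the sources used here do not say whether fragments were counted by strand. BMF-AS1 covers 461 of the 5447 exon bases of BMF in GENCODE (8.46%). MIR4435-2HG covers 10.8% of BCL2L11, GPR137 covers 23.7% of BAD and MIR3191 covers 2.51% of BBC3. GPR137 was 22.11 FPKM with XY101 and 18.45 FPKM with vehicle, which is opposite in direction to BAD. The other overlapping genes were not analysed here. Of 100-base windows of the longest coding transcript, 5.83% for BMF, 12.4% for BCL2L11 and 17.4% for BAD also occurred in the transcript of that neighbour. For BBC3, PMAIP1, BIK, BID and HRK, 0 windows occurred in a transcript of another gene.

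The pro-survival proteins are the direct partners of the BH3-only proteins. Of their 6 genes, 4 had a mean of at least 1 FPKM, with a median log2 ratio of -0.11. With XY101, 0 of these were at least 2-fold higher and 1 was at least 2-fold lower. Of all genes at that level, 1.17% were higher and 0.698% lower. That 1 gene was BCL2A1, an NF-kB target whose protein A1 binds NOXA and BIM, at 7.16 FPKM with XY101 and 15.62 FPKM with vehicle (log2 ratio -1.11). BCL2L1, which encodes BCL-XL, was by far the most abundant, with 232.77 FPKM in the XY101 library and 300.64 FPKM in the vehicle library (-0.37). MCL1 was 60.67 FPKM with XY101 and 55.03 FPKM with vehicle (0.14), and BCL2L2, encoding BCL-W, was 13.97 FPKM with XY101 and 12.08 FPKM with vehicle (0.21). BCL2 and BCL2L10 lay below a mean of 1 FPKM. BCL2 itself was low, at 0.13 FPKM with XY101 and 0.43 FPKM with vehicle (-1.20). This corresponds to about 13 fragments with XY101 and 40 with vehicle at the median coding transcript, with a counting interval from -2.73 to -0.77. BCL2L10 was 0.77 FPKM with XY101 and 0.42 FPKM with vehicle (0.74, interval from -0.76 to 2.82). The summed FPKM of the BH3-only genes was 0.693 of the summed FPKM of the pro-survival genes with XY101 and 0.578 with vehicle. These sums rest mainly on BAD and BCL2L1, and a ratio of transcripts is not a ratio of proteins.

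The effector genes differed little, as did most genes. BAX was 152.82 FPKM with XY101 and 152.06 FPKM with vehicle (log2 ratio 0.01), and BAK1 was 30.76 FPKM with XY101 and 27.76 FPKM with vehicle (0.15). BOK, a BAX relative that acts apart from the pro-survival proteins, was 39.73 FPKM with XY101 and 45.44 FPKM with vehicle (-0.19). None of these 3 genes reached 2-fold. Across all 10894 genes with a mean of at least 1 FPKM, 92.8% differed by less than 1.5-fold. At 2-fold, 1.17% were higher and 0.698% lower, so counts of 0 in lists this short are a description only. Downstream, 8 genes from cytochrome c to the executioner caspases, a caspase inhibitor gene among them, had a median of 0.20. Of these, 0 of 8 were at least 2-fold different. They ranged from CYCS, encoding cytochrome c, at 48.0 FPKM with XY101 and 51.12 FPKM with vehicle (-0.09) to the apoptosome gene APAF1 at 2.28 FPKM with XY101 and 1.32 FPKM with vehicle (0.75).

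Of 5 genes for other proteins with a BH3-like motif, 3 had a mean of at least 1 FPKM and 0 were 2-fold different. Few genes were: at that level, 1.17% of all genes were at least 2-fold higher and 0.698% at least 2-fold lower. BNIP3L, a mitophagy receptor, was 30.22 FPKM with XY101 and 23.85 FPKM with vehicle (0.34), and the autophagy gene BECN1 was 32.86 FPKM with XY101 and 26.9 FPKM with vehicle (0.29). HUWE1, a ubiquitin ligase of MCL-1, was 32.77 FPKM with XY101 and 32.68 FPKM with vehicle. BCL2L14 was 1.01 FPKM with XY101 and 0.85 FPKM with vehicle, and BNIP3, a hypoxia-inducible gene in many cells, was listed at 0 with XY101 and at 0.05 FPKM with vehicle.

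Genes for proteins that hold or modify the members were also read. DYNLL1 and DYNLL2 encode the dynein light chains that bind BIM and BMF. DYNLL1 was 456.39 FPKM with XY101 and 310.89 FPKM with vehicle (0.55), and DYNLL2 was 32.04 FPKM with XY101 and 26.48 FPKM with vehicle (0.27). Of 16 genes for BAD kinases and the 14-3-3 proteins that retain phosphorylated BAD, 0 were 2-fold different and the median was 0.09, the same as that of all genes. Their lowest ratio was that of the kinase gene PIM1, at 16.34 FPKM with XY101 and 29.3 FPKM with vehicle (-0.84), and their highest that of RPS6KB1, encoding S6 kinase, at 8.85 FPKM with XY101 and 5.21 FPKM with vehicle (0.75). The 5 genes around BID cleavage had 0 members 2-fold different. Among all genes with a mean of at least 1 FPKM, 1.17% were at least 2-fold higher and 0.698% at least 2-fold lower. Counts of 0 in such lists are thus a description only. CASP8 was 10.83 FPKM with XY101 and 9.94 FPKM with vehicle, CASP10 was 4.07 FPKM with XY101 and 3.09 FPKM with vehicle, and FADD was 90.88 FPKM with XY101 and 84.09 FPKM with vehicle. CFLAR, the inhibitor of caspase-8 activation, was 17.68 FPKM with XY101 and 25.87 FPKM with vehicle (-0.55), and MTCH2, the mitochondrial receptor of cleaved BID, was 80.49 FPKM with XY101 and 90.28 FPKM with vehicle (-0.17).

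**Figure D4:**
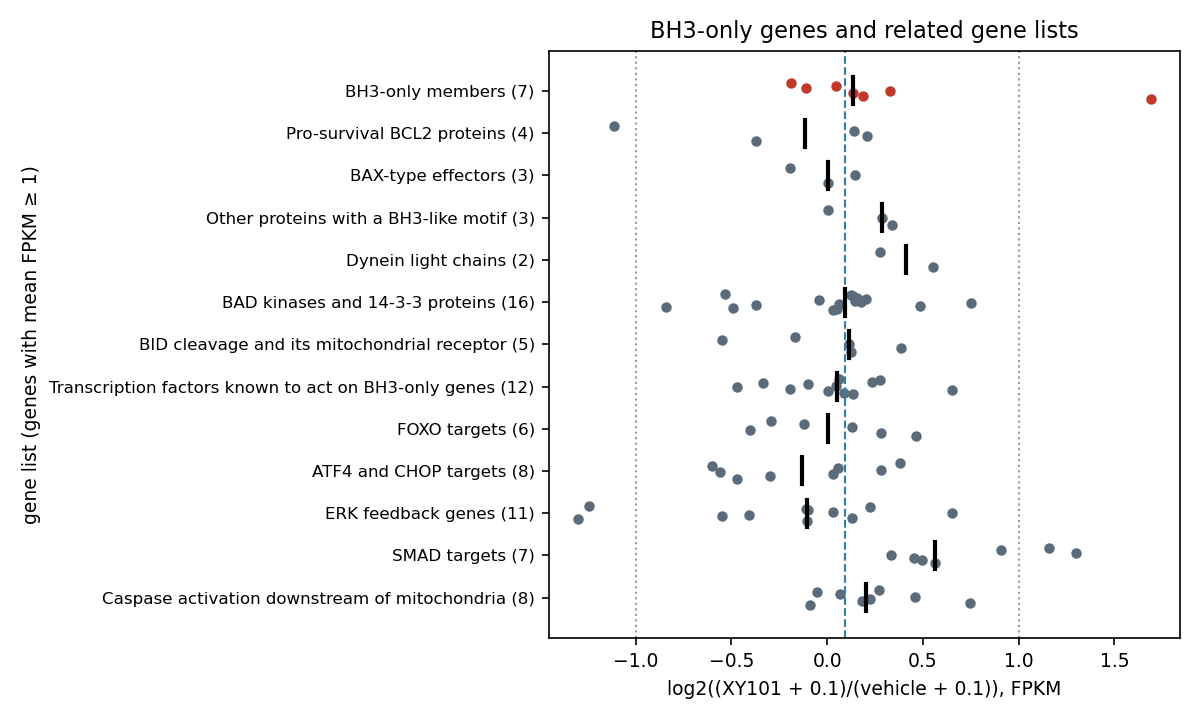
Log2 ratio of XY101 to vehicle for genes with a mean of at least 1 FPKM in the BH3-only group (red, top) and 12 related lists (grey), as far as their genes are reported, 1 point per gene, with the number of genes in parentheses. Black bars are list medians, the dashed line is the median of all genes (0.09) and the dotted lines are 2-fold. The BH3-only median is 0.13, with BMF alone of its group to the right of 2-fold, and ID1 and ID3 among the SMAD targets also lie beyond it.

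Of the transcription factors known to act on BH3-only genes, 12 were read. None of the 12 was 2-fold different and their median was 0.05. Of all genes with a mean of at least 1 FPKM, 1.17% were at least 2-fold higher and 0.698% at least 2-fold lower. Counts of 0 in lists this short are therefore a description only. FOXO4 had the highest ratio (6.95 FPKM with XY101 and 4.39 FPKM with vehicle) and DDIT3, encoding CHOP, the lowest (25.64 FPKM with XY101 and 35.52 FPKM with vehicle). Target lists of such factors, which hold none of the 8 members, were read in the same way. Of 8 FOXO targets, 6 had a mean of at least 1 FPKM, with a median of 0.0048, from IRS2 (7.58 FPKM with XY101 and 10.05 FPKM with vehicle) to CCNG2 (10.17 FPKM with XY101 and 7.35 FPKM with vehicle). The 8 ATF4 and CHOP targets had a median of -0.13, from PPP1R15A (48.1 FPKM with XY101 and 72.92 FPKM with vehicle) to VLDLR (2.95 FPKM with XY101 and 2.24 FPKM with vehicle). In these 2 target lists 0 genes at that level were 2-fold different in either direction.

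The ERK feedback and SMAD target lists held genes past 2-fold, and both lists were chosen with earlier results of these data known. Across all 10894 genes with a mean of at least 1 FPKM, 1.17% were at least 2-fold higher and 0.698% at least 2-fold lower. With lists this short, the counts are a description only. The ERK feedback list held 11 genes, some of which, such as FOSL1, are ERK output genes and not feedback inhibitors. Of these 11 genes, 0 were at least 2-fold higher and 2 at least 2-fold lower with XY101, with a median of -0.10. These were the ERK phosphatase gene DUSP5 (15.68 FPKM with XY101 and 38.76 FPKM with vehicle) and the AP-1 gene FOSL1 (155.94 FPKM with XY101 and 369.29 FPKM with vehicle), while SPRED1 had the highest ratio of the list (5.83 FPKM with XY101 and 3.68 FPKM with vehicle). Of the 7 SMAD targets reported here, 2 were at least 2-fold higher and 0 at least 2-fold lower. The list was longer and not all of it is reported, so its median and the direction of the 7 genes do not describe SMAD targets as a whole. The 2 genes were ID1 (480.5 FPKM with XY101 and 195.15 FPKM with vehicle) and ID3 (102.12 FPKM with XY101 and 45.67 FPKM with vehicle), inhibitors of basic helix-loop-helix factors that respond mainly to BMP. The lowest ratio among the 7 was that of TGFBI, a TGF-β-induced matrix gene, at 637.64 FPKM with XY101 and 505.66 FPKM with vehicle (0.33). Whether the activity of ERK or SMAD proteins bears on BMF was not tested.

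The genes whose values lay nearest to those of BMF in the XY101 and vehicle libraries, by distance on the log2(FPKM + 0.1) scale over 2 libraries, were PTGS2 (12.21 FPKM with XY101 and 3.38 FPKM with vehicle), TNFSF10 (11.43 FPKM with XY101 and 4.44 FPKM with vehicle) and EGLN3 (14.72 FPKM with XY101 and 4.5 FPKM with vehicle). PTGS2 encodes an inducible prostaglandin synthase, TNFSF10 the death ligand TRAIL and EGLN3 a prolyl hydroxylase. With 2 points per gene, such likeness is weak.

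The label of the cells was read from markers of the lineage. KRT7, the biliary keratin, was 4184.91 FPKM with XY101 and 5080.23 FPKM with vehicle, and KRT19 was 1699.06 FPKM with XY101 and 1909.49 FPKM with vehicle. The other epithelial keratins, KRT8 (767.03 FPKM with XY101 and 912.69 FPKM with vehicle) and KRT18 (1392.7 FPKM with XY101 and 1784.72 FPKM with vehicle), were abundant in both libraries. EPCAM, an epithelial adhesion gene, was 275.12 FPKM with XY101 and 254.18 FPKM with vehicle (0.11). SOX9, a transcription factor of bile duct cells, differed most of the 6 markers, at 7.41 FPKM with XY101 and 14.61 FPKM with vehicle (-0.97), just short of 2-fold lower. The hepatocyte gene APOA2 was listed at 0 with XY101 and at 0.33 FPKM with vehicle, and ALB, TTR and CYP3A4 were not analysed here. Of the stromal and blood cell markers COL1A2, DCN, PECAM1 and PTPRC, the highest value was 0.5 FPKM, for PECAM1 with XY101. The libraries were alike in the number of genes above 0 FPKM, 14719 with XY101 and 14666 with vehicle.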

How the data were processed

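RNA-seq values of HUCCT-1 cells were deposited as FPKM made by the authors, rounded to 2 decimals, in 1 column per library. The study's methods give a TruSeq poly(A) library, GRCh37/hg19, BWA, Bowtie 2 and RSEM, whereas the submitters' processing notes list HISAT2, HTSeq 0.11.2, limma 3.40.6, DESeq2 and FastQC with GRCh38 but give them no role, and their labels name a KAPA kit. How fragments of overlapping genes were divided is therefore not settled. Of 17424 rows, 770 held annotation text in place of a gene and were left out.

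Log2((XY101 + 0.1)/(vehicle + 0.1)) was computed from the FPKM values. Genes with a mean of at least 1 FPKM were counted at a threshold of 2-fold. With 1 library per group, no test was run. Depth was estimated by scanning for the total and length offset at which values up to 0.3 FPKM of genes with a single GENCODE transcript became whole fragments. Within a tolerance of 0.2, 85.9% of the XY101 values and 89.4% of the vehicle values did, against at most 49.7% and 56.4% with shuffled lengths. The scan gave an offset of 360 nt for XY101 and 270 nt for vehicle, and their mean, 315 nt, was used for both libraries. The fragment numbers and intervals apply to these approximate depths and to this shared offset, which matters most for short transcripts.

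The 8 members and all lists were chosen with earlier results of these data known. Named genes were all members, the highest and lowest ratio of each list and any gene past 2-fold, every gene of lists of 6 or fewer, and the 3 genes nearest to a member past 2-fold. The results of some listed genes are not reported here, which shortened 2 lists and left out another after their values had been seen. The steps were run on simulated data with planted differences. The simulation held counting error only, at the estimated depths, so it says nothing of the spread between cultures. Alternatives covered the pseudocount, filter, threshold, centring and scaling. Tables were handled with pandas 2.3.3 and numpy 2.4.6 in Python 3.11.15, intervals with scipy 1.17.1 and plots with matplotlib 3.10.9.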

Additional observations from a re-analysis of the deposited data

How the results depend on the processing

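The limits are set by 1 library per group and by an estimated depth: differences cover these libraries only, and HRK is too low to compare. The 96 alternative values for the BH3-only counts, median and members stayed within the counting interval, or for counts were equal or within 1.5 times. Many of them could not move, since the filters and the threshold leave the ratio of each member as it was. For the median, the bounds were the medians of the members' bounds, which is not a counting interval of the median. The number is therefore a description and not a measure of robustness. BMF kept a log2 ratio from 1.49 with a pseudocount of 1 FPKM to 1.73 with equal totals, and the BH3-only median ranged from 0.04 to 0.18. BID changed sign under the 2 scalings that lower the ratio of each gene, to -0.05 centred on the median gene and to -0.02 with equal upper quartiles, and no other member did so under a scaling. Over all genes, 127 were higher and 76 lower, against 69 and 41 with a pseudocount of 1 FPKM, 409 and 268 with no filter, 53 and 34 with a mean of at least 5 FPKM, and 534 and 253 at 1.5-fold. Centring left 96 higher and 95 lower, so the higher share was 50.3% in place of 62.6%. Equal upper quartiles gave 107 and 88 (54.9%), and equal totals 141 and 65 (68.4%). With no filter, 2 pro-survival genes were lower (BCL2 added). The median of the dynein light chains was 0.32 once centred. Without BAD, the highest member, the BMF share of the summed FPKM was 10.1% with XY101 and 3.34% with vehicle. No paired analysis was possible because each group has 1 library.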

Other observations

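Genes named BCL2L that belong to no list above were read after their values were seen. BCL2L15 was 1.32 FPKM with XY101 and 0.56 FPKM with vehicle, a log2 ratio of 1.11 at a mean of 0.94 FPKM, just under the level used for counting. BCL2L12 was 72.49 FPKM with XY101 and 77.97 FPKM with vehicle (-0.10), and BCL2L13, a mitophagy receptor, was 14.73 FPKM with XY101 and 15.9 FPKM with vehicle (-0.11). The readthrough gene BCL2L2-PABPN1 was 1.42 FPKM with XY101 and 0.78 FPKM with vehicle and shares sequence with BCL2L2.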
